A study of Arabidopsis thaliana with 16 samples.

Results

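The comparison described here is that of H3K27me3 in *Atsdr4l-5* seedlings at 3 days after imbibition (DAI) against 1 DAI. Its members are the 4 ChIP-seq libraries labelled as H3K27me3 of *Atsdr4l-5*, 2 replicates at each time point, out of the 16 samples of the series and the 12 H3K27me3 libraries that have a peak list. The other 8 are the wild type Col-0 and a different deletion allele, *Atsdr4l-4*, at the same time points with 2 replicates each. All seedlings were grown on medium with 1% sucrose and harvested whole, so a gene marked in some cells and a gene weakly marked in all cells cannot be told apart. *Atsdr4l-5* is a deletion allele of *AtSDR4L* made in Col-0 with a vector that drives Cas9 from an egg cell promoter. The line was backcrossed once to Col-0 and Cas9-free progeny were bulked, so it stands for 1 allele. The labels do not say whether replicates came from separate plantings, and the spread between them may be technical.

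H3K27me3 is the repressive histone mark that Polycomb Repressive Complex 2 (PRC2) places on nucleosomes, usually as broad domains over whole genes. In Arabidopsis, the B3 proteins VAL1 and VAL2 bind RY elements and help bring Polycomb complexes to seed maturation genes, and the mark spreads over these genes as the embryo becomes a seedling. AtSDR4L and its relatives DIG1, DIG2 and the DIG-Like (DIL) proteins are transcriptional co-repressors that act on many of the same seed genes. Embryo identity is held by LEC1, LEC2, ABI3 and FUS3, which switch on storage proteins, oil body proteins and late embryogenesis abundant (LEA) proteins. The question of the comparison is which genes entered or left H3K27me3 domains between 1 and 3 DAI in seedlings that carry a deletion in *AtSDR4L*.

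The allele was made with 2 guides, and the target site of each is shown with its PAM in capitals, in the TAIR10.1 assembly, read 5′ to 3′ on the minus strand. Each site had 1 exact match on chromosomes 1 to 5.
Guide at chr1:9538914-9538933: gacccattgcaccaaagcccGGG
Guide at chr1:9538833-9538852: ctccttaccttcgtaacctcTGG
Both sites lie in the coding sequence of the only annotated exon of *AtSDR4L* (AT1G27461, chr1:9537736-9539027). The ends of the deletion in the line were not read from these data, and a peak list cannot show a short deletion, so the genotype labels were not checked by it.

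The promoters below carry the motifs that come back in the results, and for each of the 3 the 250 bases before the annotated start are shown, with every G-box (CACGTG) and every RY element (CATGCA on either strand) in capitals. G-boxes are bound by bZIP and bHLH factors, and RY elements by B3 proteins, among them VAL1 and VAL2. The genes are *OLEO1*, which encodes an oleosin, *EM6*, which encodes a LEA protein, and *FUS3*. They were chosen after their values were seen, as newly marked genes of different roles. The sequences are from RefSeq, TAIR10.1.
OLEO1, chr4:12900180-12900429, plus strand: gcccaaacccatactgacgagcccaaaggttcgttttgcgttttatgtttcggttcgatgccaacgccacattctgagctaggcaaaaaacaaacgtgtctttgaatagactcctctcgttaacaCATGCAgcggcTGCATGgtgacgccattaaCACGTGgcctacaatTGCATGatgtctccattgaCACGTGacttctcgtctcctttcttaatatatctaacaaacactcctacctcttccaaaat
EM6, chr2:16780369-16780618, minus strand: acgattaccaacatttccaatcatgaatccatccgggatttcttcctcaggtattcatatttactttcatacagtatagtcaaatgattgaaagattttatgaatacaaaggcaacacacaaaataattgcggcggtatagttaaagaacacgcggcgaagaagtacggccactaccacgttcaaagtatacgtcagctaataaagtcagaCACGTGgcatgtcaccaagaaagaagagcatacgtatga
FUS3, chr3:9856213-9856462, minus strand: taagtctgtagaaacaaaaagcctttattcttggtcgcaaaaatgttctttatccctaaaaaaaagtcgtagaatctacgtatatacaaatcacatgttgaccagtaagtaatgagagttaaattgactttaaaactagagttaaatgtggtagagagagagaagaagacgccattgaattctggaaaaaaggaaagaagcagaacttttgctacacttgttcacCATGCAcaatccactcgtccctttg
*OLEO1* holds 2 G-boxes and 3 RY elements in these bases, *EM6* holds 1 G-box and *FUS3* holds 1 RY element. At 1 DAI no base of the 3 windows lay in a peak in either *Atsdr4l-5* library. At 3 DAI all 250 bases of the *EM6* and *FUS3* windows lay in a peak in both libraries. The *OLEO1* window was covered over 137 and 98 bases, on the side of the gene.

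The *Atsdr4l-5* seedlings carried more H3K27me3 over the chromosomes at 3 DAI than at 1 DAI. Peaks covered 21.30 and 24.59 Mb of chromosomes 1 to 5 in the 1 DAI libraries and 25.93 and 26.44 Mb in the 3 DAI libraries. The groups did not overlap, with means of 22.95 Mb ± 2.331 and 26.18 Mb ± 0.3659 (SD, n = 2 each), a rise of 14.4%. The 1 DAI replicate 1 had the shortest covered length of all 12 libraries. Peaks were hardly more numerous, by 4.81%, and a little wider, with medians of 2099 and 2381 bp at 1 DAI against 2407 and 2416 bp at 3 DAI. They were also stronger. Median fold enrichment over the mock control was 1.87 and 1.93 at 1 DAI and 2.12 and 2.23 at 3 DAI, and the number of peaks of at least 2-fold enrichment was 2572 and 3032 against 3831 and 4238. With 2 libraries against 2, the exact two-sided permutation test gave p = 0.3333 for each of these measures, the smallest p that the 6 splits allow. The change in covered length was close to that in Col-0, with a difference of -0.013 on the log2 scale (exact permutation of genotypes within time points, p = 1). Against *Atsdr4l-4* the difference was 0.08 (exact p = 0.5556, smallest possible 0.05556). Sequencing depth is unknown, as only peaks were given, and its part in these differences was not tested. Peaks on the chloroplast and mitochondrial sequences numbered 15 and 17 at 1 DAI and 0 and 0 at 3 DAI, while *Atsdr4l-4* had 0 and 23 at 1 DAI.

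**Figure D1:**
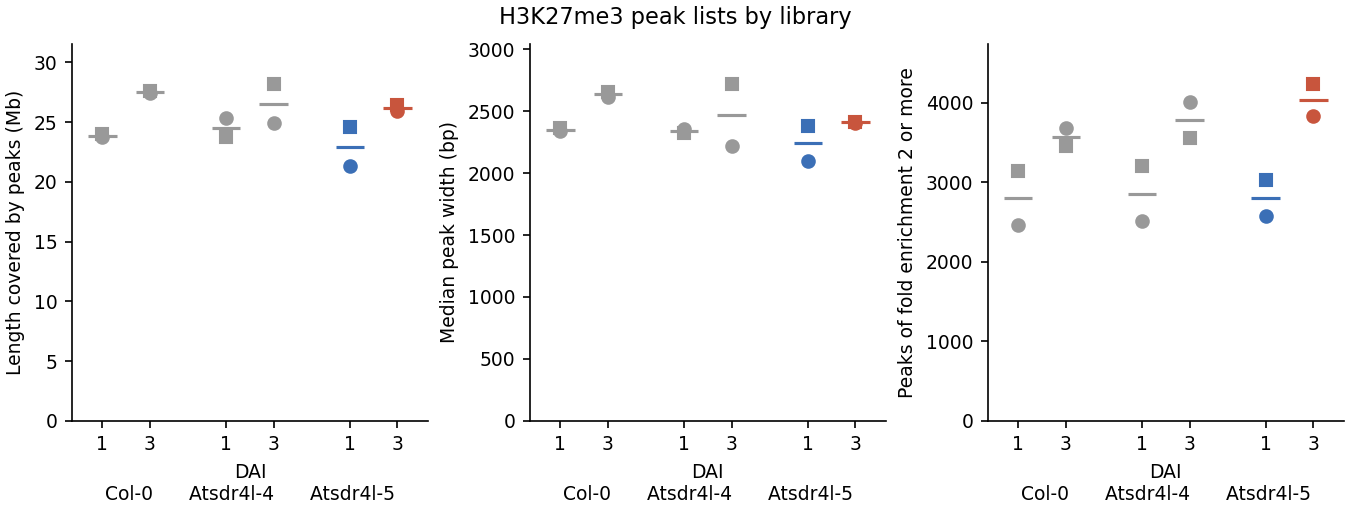
Covered length (Mb), median peak width (bp) and number of peaks of at least 2-fold enrichment in each of the 12 libraries, by genotype and DAI. Circles are replicate 1, squares replicate 2 and lines the mean of 2, with *Atsdr4l-5* in blue (1 DAI) and red (3 DAI). The 3 DAI libraries of *Atsdr4l-5*, at 25.93 and 26.44 Mb, lie above its 1 DAI libraries, at 21.30 and 24.59 Mb.

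Most of the domains were already present at 1 DAI and stayed. Of the bases marked in both 1 DAI libraries, 94.1% were marked in both 3 DAI libraries and 2.57% in neither. Of the bases marked in both 3 DAI libraries, 78.8% had been marked in both 1 DAI libraries, 10.6% in 1 of them and 10.6% in neither. The last class, here called newly covered, summed to 2583 kb in 5376 segments. Bases marked in both 1 DAI libraries and neither 3 DAI library, called no longer covered, summed to 523.7 kb in 2137 segments. The ratio of the lengths was 4.93, beside 4.30 in Col-0 (3434 and 797.8 kb) and 3.30 in *Atsdr4l-4* (2053 and 622.1 kb). The excess of new over lost length varied with the peaks used. When the strongest peaks of each library were kept until 20 Mb were covered, the lengths were 1470 and 1327 kb, and an equal total forces them toward each other. With peaks of at least 2-fold enrichment the lengths were 3387 and 193.3 kb. Leaving out 1 library, which loosens the rule, gave 2978 to 4765 kb newly covered and 784.4 to 1774 kb no longer covered. Of these the fits without 1 DAI replicate 2 (4765 kb) and without 3 DAI replicate 1 (3907 kb) moved the new length by over 1.5 times, and those without 1 DAI replicate 1 (1774 kb), 1 DAI replicate 2 (889.5 kb) or 3 DAI replicate 1 (941 kb) the lost length.

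**Figure D2:**
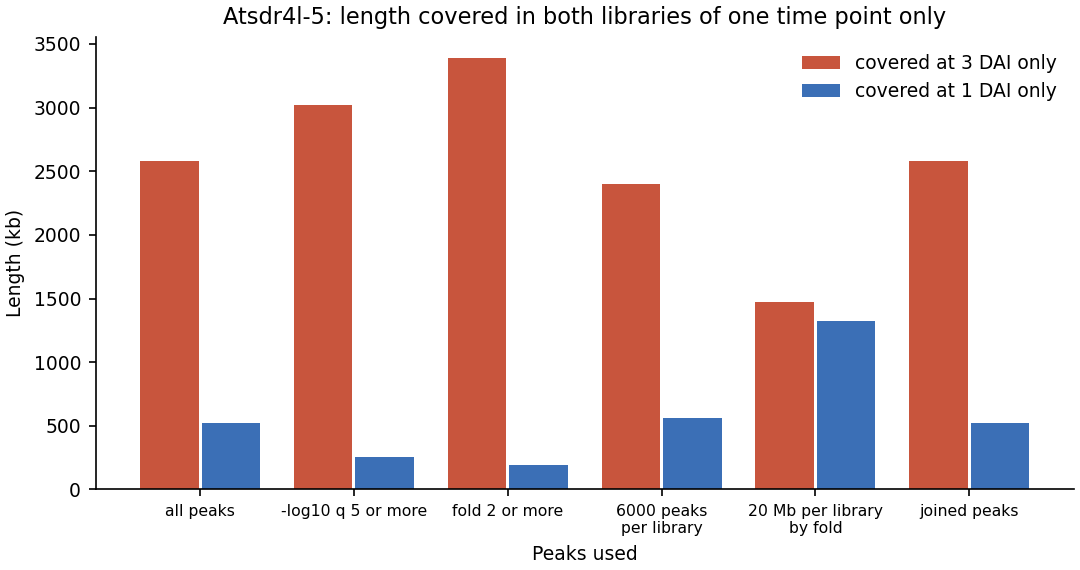
Length (kb) covered in both *Atsdr4l-5* libraries of one time point and in neither of the other, for all peaks and for 5 other selections of peaks. Red bars are bases at 3 DAI only and blue bars bases at 1 DAI only. The red bar is the longer in each selection, at 2583 against 523.7 kb with all peaks and 1470 against 1327 kb at an equal covered length of 20 Mb.

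Most new bases lay beside 1 DAI peaks. Segments that touched a peak of a 1 DAI library held 73.4% of the newly covered length. A further 823 segments of at least 200 bp touched none, with a median of 617 bp. Length no longer covered adjoined peaks of the other time point for 77.93%. The share of newly covered length was 77.05% in Col-0 and 72.67% in *Atsdr4l-4*. Whether adjoining length marks growth of a domain was not tested. In *Atsdr4l-5* the gain was spread over the genome, at 21.9, 23.0, 21.4, 21.6 and 20.8 kb per Mb on chromosomes 1 to 5. Of the newly covered bases 56.7% lay in the body of a protein-coding gene and 38.5% between genes, beside 46.7% and 49.4% of the bases marked in all 4 libraries and 54.1% and 35.9% of the whole chromosomes. Bases no longer covered lay in protein-coding bodies for 23.1% and between genes for 73.7%. The peaks of 3 DAI that met no 1 DAI peak, 962 and 1057 in the 2 libraries, had median fold enrichments of 1.58 and 1.59, beside 2.23 and 2.37 for the other 3 DAI peaks.

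The 8 longest segments with no older domain beside them were 3638 to 5121 bp. The longest, chr1:985732-990852 (5121 bp), covered *CRU2*, which encodes the storage globulin cruciferin 2, and its neighbour AT1G03890, which encodes a cupin-family protein. A segment of 3978 bp at chr2:18557588-18561565 covered *CCD7*, a carotenoid cleavage dioxygenase of strigolactone synthesis. *GASA3* and *GASA2*, genes of small gibberellin-regulated peptides, shared 3787 bp at chr4:6072806-6076592. *FUS3* lay under 3638 bp at chr3:9854210-9857847. The other 4 lay over AT1G01250, AT5G58610, the peroxidase gene AT1G71695, and AT4G21902 with AT4G21903. Among segments that extended an older domain, the longest was 7191 bp at chr5:1229793-1236983, around the methyltransferase gene *NAMT1*. The longest isolated segment no longer covered, 3360 bp at chr1:4942047-4945406, held no annotated gene.

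Far more gene bodies entered the mark than left it. Of 37899 annotated genes on chromosomes 1 to 5, 6851 were covered over at least 50% of the body in both 1 DAI libraries and 8467 in both 3 DAI libraries, and 6620 in all 4. Genes newly covered over at least 50% of the body numbered 752 (1.98% of all genes), and 64 (0.169%) were no longer covered. Of the 752, 179 were newly covered over the whole body and 547 had no marked base at 1 DAI. They included 580 protein-coding genes (2.11% of 27444), 100 lncRNA genes and 11 miRNA genes. Both 3 DAI libraries lay above both 1 DAI libraries for 3540 genes (9.34%) and below for 566 (1.49%). At the edge of the rule, *PEI1*, a zinc finger gene, went from 0 and 0% to 63.7 and 49.8% and just missed it, and AT4G37409, of unknown function, went from 40.1 and 49.9% to 100 and 100% and just met it. At an equal covered length of 20 Mb the counts were 472 newly and 343 no longer covered, with 336 of the 472 among the 752. Leaving out 1 library gave 878 to 1245 newly covered and 87 to 180 no longer covered genes. The new count moved by over 1.5 times without 1 DAI replicate 2 (1245) or 3 DAI replicate 1 (1144), and the lost count without 1 DAI replicate 1 (180), 1 DAI replicate 2 (127) or 3 DAI replicate 1 (127).

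A test per gene was made with limma on the percent of the body covered, over all 12 libraries in 6 groups, with Benjamini-Hochberg adjustment over the 13015 genes that held a marked base in any library. Coverage rose in 1157 genes (8.89%) and fell in 80 (0.615%) at an adjusted p below 0.05, by 50 points or more in 645 and 36 of them. The rule and the test are not the same, since 533 of the 752 newly covered genes and 31 of the 64 no longer covered genes passed the test. Without 1 *Atsdr4l-5* library the test called 869 to 1527 genes higher and 74 to 163 lower, with 126 lower without 1 DAI replicate 1 and 163 without 1 DAI replicate 2. Coverage is bounded at 0 and 100%, and where every library sat at a bound the spread was 0 and the p has no meaning, so it is not given. Such genes, among them *CRU2* and *XERO1*, are still included in the counts of calls, and their number is not given. Below, "rose" and "fell" are used only for genes past this test, and values are percent of the gene body covered in 1 DAI replicates 1 and 2, then 3 DAI replicates 1 and 2.

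Of the embryo regulators, *LEC1* and *FUS3* rose in coverage by peaks between 1 and 3 DAI. Of 10 genes, 3 were covered over at least 50% of the body at 1 DAI and 4 at 3 DAI. By the rule 2 were newly covered (all genes 1.98%). Of 8 tested genes 2 rose (all genes 8.89%) and none fell. The mean coverage was 30.3% at 1 DAI and 46.4% at 3 DAI (all genes 19.4% and 23.3%). *LEC1* (AT1G21970, chr1:7727577-7729649), the NF-Y subunit at the top of the embryo programme, held 0 and 19.6% at 1 DAI and 100 and 96.1% at 3 DAI. Nearly the whole of *LEC1* was thus marked at 3 DAI in both libraries, a rise of 88.2 points ± 9.13 (SE, adjusted p = 0.00147, limma). In Col-0 *LEC1* already held 69.1 and 91.0% at 1 DAI and 100% in both libraries at 3 DAI, and in *Atsdr4l-4* 14.4% in both 1 DAI libraries and 86.5 and 100% at 3 DAI. The rise was larger in *Atsdr4l-5* than in Col-0 by 68.3 points, which did not pass the test of the difference (adjusted p = 0.0767). The paper describes the level of H3K27me3 at *LEC1* at 1 DAI as similar in wild type and *Atsdr4l*. Coverage by called peaks is a different measure from that level. *FUS3* (AT3G26790, chr3:9853828-9856212) held 0% in both 1 DAI libraries and 84.0 and 97.4% at 3 DAI, and rose by 90.7 points ± 4.14 (adjusted p = 2.08e-05, limma). *LEC2* was covered over 100% in every library.

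*ABI3* (AT3G24650, chr3:8997370-9001185), the B3 factor of seed maturation and ABA response, was marked over a smaller share. It held 0% in both 1 DAI libraries and 25.3 and 30.0% at 3 DAI, a difference of 27.6 points ± 7.78 that did not pass the test (adjusted p = 0.0885, limma). In Col-0 it went from 0% in both libraries to 97.7 and 99.6%, and in *Atsdr4l-4* from 0% to 12.4 and 39.6%. The 3 DAI libraries of both alleles thus lay below both Col-0 libraries. The time difference in *Atsdr4l-5* was 71.0 points below that in Col-0 (limma interaction, adjusted p = 0.035), but the adjusted p was 0.0505 to 0.0804 when any of the 4 *Atsdr4l-5* libraries was left out. Over all alternatives it ran from 0.00244 with peaks of at least 2-fold enrichment to 0.517 on a log2 scale of covered bases, with the same sign. None of the 300 bases around the *ABI3* start, 250 before and 50 after it, lay in a peak in any of the 4 *Atsdr4l-5* libraries. *ABI4* went from 100% in both libraries to 100 and 0%, so its 3 DAI replicates disagreed. *BBM* was covered over 91.4% or more in all 4 libraries, and *ABI5* and *NF-YB6*, another NF-Y subunit gene, held no mark.

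The *AtSDR4L* family held 2 genes marked throughout, 3 that rose and 2 that were almost or wholly unmarked over the body. Of 7 genes, 2 were covered over at least 50% at 1 DAI and 5 at 3 DAI, with a mean of 33.3% at 1 DAI and 61.8% at 3 DAI. By the rule 3 were newly covered (all genes 1.98%), and 3 of 6 tested rose (all genes 8.89%). *DIL1* (AT5G63350) went from 0% in both libraries to 85.1 and 66.9%, and rose by 76.0 points ± 6.68 (adjusted p = 0.000644, limma). *DIG2* (AT5G50360) went from 0% to 57.2 and 55.8% (adjusted p = 0.0367), where both Col-0 libraries reached 100%. *DIL3* went from 33.1 and 33.3% to 100% in both (adjusted p = 0.0495), and in Col-0 it was at 100% at both time points. The differences of *DIG2* and *DIL3* from Col-0 did not pass the test (limma interaction, adjusted p = 0.692 and 0.5). The calls of *DIG2* and *DIL3* were lost when any of the 4 libraries was left out (adjusted p 0.0996 to 0.149 and 0.124 to 0.184). *DIL2* and *DIL4* were covered over 100% in all 4 libraries, and *DIG1* was unmarked in all 12. *AtSDR4L* itself, which carries the deletion, held 0 and 0% at 1 DAI and 0 and 0.4% at 3 DAI. Of the 300 bases around its start, 0 and 0 lay in a peak at 1 DAI and 104 and 255 at 3 DAI. In Col-0 the body went from 0% in both to 36.5 and 51.9%, and in *Atsdr4l-4* from 0% in both to 0 and 10.9%. The time difference in *Atsdr4l-5* differed from that in Col-0 by -44.0 points, which did not pass the test (limma interaction, adjusted p = 0.0511). With the 1 DAI replicate 1 left out, which was decided after the data were seen, the family kept 1 call of 3, that of *DIL1*.

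**Figure D3:**
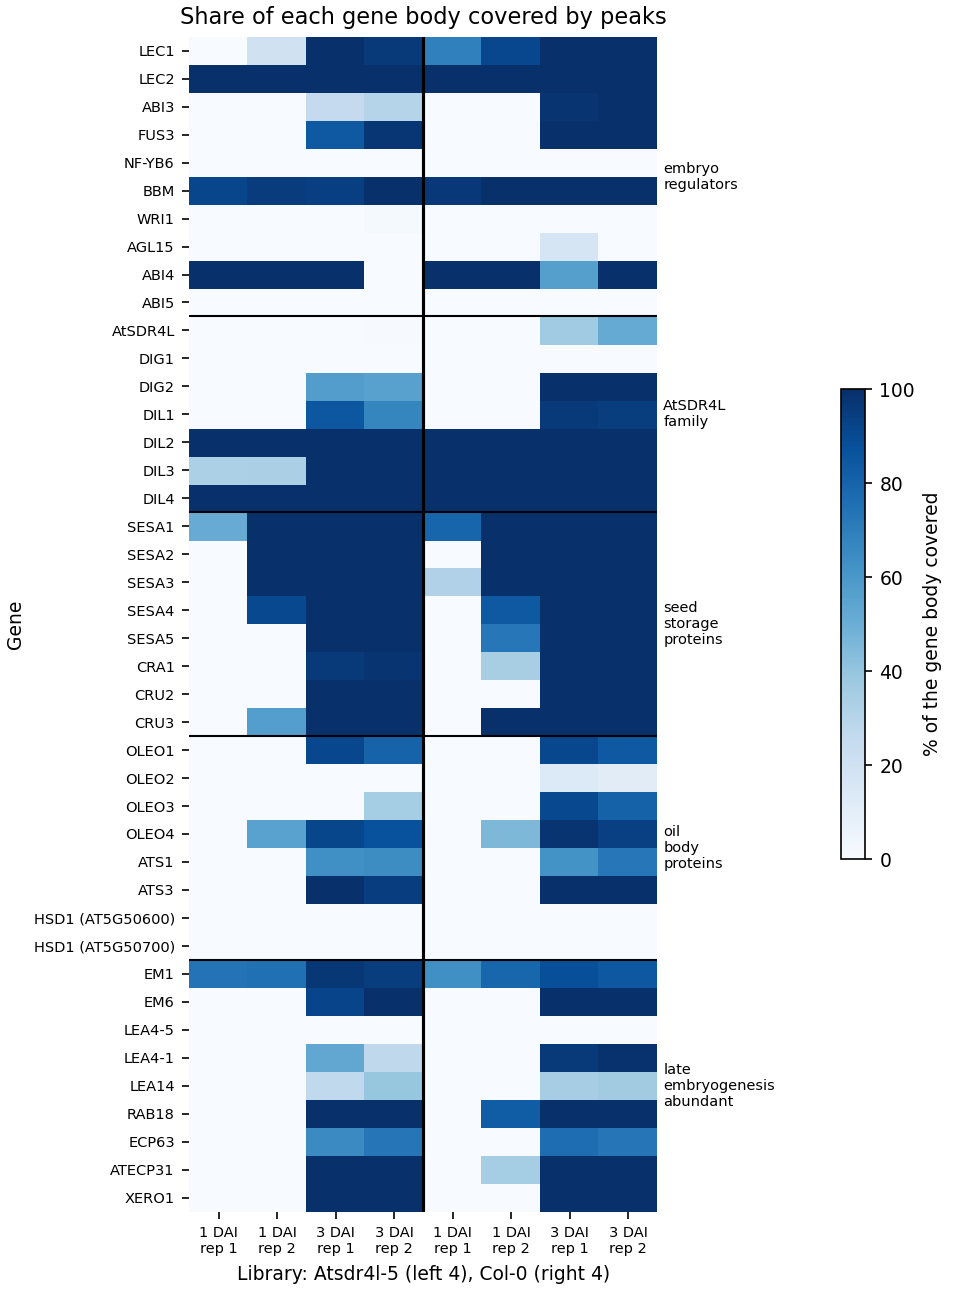
Percent of the gene body covered by peaks for the members of 5 lists of seed genes, in the 4 *Atsdr4l-5* libraries (left) and the 4 Col-0 libraries (right). Darker blue is more coverage, from 0 to 100%. *FUS3*, *CRU2* and *EM6* are white at 1 DAI and dark at 3 DAI in both genotypes, and *ABI3*, at 25.3 and 30.0% in *Atsdr4l-5*, is lighter than in Col-0 at 97.7 and 99.6%.

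The storage protein genes were covered almost completely at 3 DAI, and 5 of the 8 already over at least 50% of the body in 1 DAI replicate 2. Of 8 storage protein genes, 1 was covered over at least 50% of the body at 1 DAI and all 8 at 3 DAI, with a mean of 31.1% at 1 DAI and 99.6% at 3 DAI. Only 3 of the 8, which were all tested, were newly covered by the rule and rose (all genes 1.98% and 8.89%). *CRU2* (AT1G03880, chr1:985751-988146) went from 0% in both libraries to 100% in both, as in Col-0 and *Atsdr4l-4*. *CRA1* (AT5G44120), a further 12S cruciferin gene, went from 0% to 96.0 and 97.9% and rose by 96.9 points ± 9.70 (adjusted p = 0.00124, limma). *SESA5*, a 2S albumin gene, went from 0% to 100% in both, with a call (adjusted p = 0.0292) that was lost without any of the 4 libraries (0.0838 to 0.126). The others differed already between the 1 DAI replicates. *SESA2* and *SESA3* were at 0% in replicate 1 and 100% in replicate 2, *SESA4* at 0 and 90.3%, *SESA1* at 51.1 and 100%, and *CRU3* at 0 and 56.7%. Replicate 2 was the higher at 1 DAI for these 5 genes in Col-0 and *Atsdr4l-4* as well, with *SESA4* at 0 and 84.2% in Col-0 and 0 and 83.6% in *Atsdr4l-4*, and *CRU3* at 0 and 100% and 0 and 10.9%. *SESA1* to *SESA4* lie next to each other on chromosome 4, so they share a domain and are not independent.

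Among the lists, LEA genes had the most calls. Of 9 genes, 1 was covered over at least 50% at 1 DAI and 6 at 3 DAI, and 5 were newly covered (all genes 1.98%). Of 8 tested, 7 rose (all genes 8.89%). The mean coverage was 8.29% at 1 DAI and 70.4% at 3 DAI. *EM6* (AT2G40170), which encodes a hydrophilic group 1 LEA protein, went from 0% in both libraries to 91.8 and 100% and rose by 95.9 points ± 3.31 (adjusted p = 4.5e-06, limma). *ECP63* (AT2G36640) went from 0% to 65.0 and 73.0% and rose by 69.0 points ± 2.48 (adjusted p = 5.69e-06). *ATECP31* went from 0% to 100% in both (adjusted p = 0.00134), as did the dehydrin gene *XERO1*. *RAB18*, the ABA-responsive dehydrin gene, also went from 0% to 100% in both, but its call (adjusted p = 0.0474) was lost when any library was left out (0.12 to 0.179). *EM1* was marked before, at 74.0 and 75.3%, and reached 96.9 and 94.6%, with a call (adjusted p = 0.0405) that was lost likewise (0.0969 to 0.173). *LEA14* went from 0% to 26.4 and 39.3% (adjusted p = 0.00816) and *LEA4-1* from 0% to 52.8 and 27.2% (adjusted p = 0.119), while *LEA4-5* stayed at 0%. Without 1 DAI replicate 1 the list kept 5 calls. Over all 86 genes annotated as late embryogenesis abundant the share was smaller, with 10 newly covered (11.6%, all genes 1.98%). Of 60 tested, 13 rose (all genes 8.89%). Of the 86, 27 were covered over at least 50% already at 1 DAI. In 4 of the 86 both 3 DAI libraries lay below both 1 DAI libraries (all genes 1.49%).

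Oil body genes were divided. Of 8 genes none was covered over at least 50% at 1 DAI and 4 were at 3 DAI, with a mean of 3.47% and then 44.2%. By the rule 3 were newly covered (all genes 1.98%), and 3 of 6 tested rose (all genes 8.89%). *OLEO1* (AT4G25140, chr4:12900430-12901577) went from 0% in both to 90.8 and 80.2% and rose by 85.5 points ± 3.86 (adjusted p = 1.96e-05, limma). *ATS3*, an embryo-specific gene, went from 0% to 100 and 94.5% (adjusted p = 3.14e-05), and *ATS1*, which encodes the calcium-binding caleosin of oil bodies, from 0% to 63.1 and 64.4% (adjusted p = 5.76e-05). These 3 calls were kept with any 1 library left out. *OLEO4* differed between the 1 DAI replicates, at 0 and 55.4%, and reached 91.1 and 87.4% (adjusted p = 0.14). *OLEO3* reached 0 and 35.2% where Col-0 reached 90.5 and 80.7%. *OLEO2* stayed at 0% in all 4 libraries, and its time difference was 12.4 points below that in Col-0, which reached 13.6 and 11.1% (limma interaction, adjusted p = 0.00122, but 0.0633 with a replicate block). The 2 near-identical copies of *HSD1* were unmarked, and reads that map to both copies may have been removed by the authors' mapping quality filter.

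Over the seed lists the counts were well above the 1.98% of all genes that were newly covered, at 3 of 8 storage protein genes, 5 of 9 LEA genes and 3 of 8 oil body genes. By annotation alone the counts were 10 of 86 LEA genes (11.6%) and 3 of 13 oleosin genes (23.1%). The lists were drawn up with earlier results of these data known, so these counts are a description. At an equal covered length of 20 Mb, chosen after the data were seen, the storage protein, LEA and oil body counts were 2, 3 and 1. With peaks of at least 2-fold enrichment they were 7, 4 and 2. Of all 37899 genes, 472 and 1300 were newly covered at these settings. No member of any of the 18 lists was no longer covered or fell. Taking each gene of the 18 lists once, 36 of 194 rose, which is 25.2% of the 143 that were tested beside 8.89% of all tested genes, and 22 of these calls were kept in all 4 fits that left out 1 library.

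Stricter peaks ended the call of several named genes. *ATS1* held no peak in *Atsdr4l-5* under either selection, 2-fold enrichment or a −log10 q of 5 or more (adjusted p = 1 in both), and *ECP63* none of 2-fold enrichment (adjusted p = 1). With 2-fold peaks the calls of *DIL1* (0.414), *MFT* (0.623), *WOX11* (0.417), *YUC9* (1), *YUC11* (0.394), *EPF1* (0.469), *ATS3* (0.0976), *CUC1* (0.0945), *XERO1* (0.09), AT4G21903 (0.606), AT3G21755 (0.406) and *TEM1* (0.708) were lost, the values being adjusted p from limma. With a −log10 q of 5 or more those of *RPP8* (0.417), *EPF1* (0.171), *EPF2* (0.0568), *TEM1* (0.0819), *sks16* (1) and AT5G58610 (1) were lost. *LEC1*, *FUS3*, *EM6*, *OLEO1*, *CRA1*, *ATECP31*, *GA20OX2* and *KNAT6* kept their calls under both selections and with any 1 library left out.

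**Figure D4:**
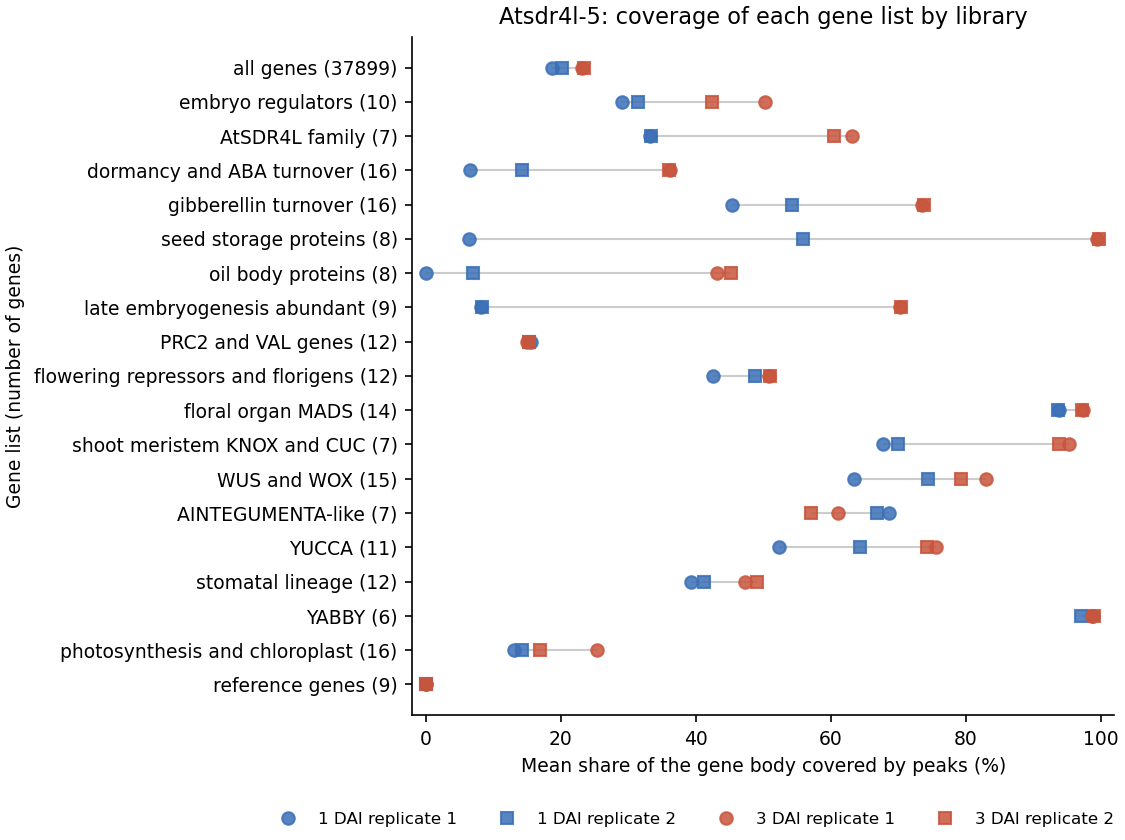
Mean percent of the gene body covered over the genes of each list, in each *Atsdr4l-5* library, with the number of genes in parentheses. Blue is 1 DAI, red 3 DAI, circles replicate 1 and squares replicate 2. Storage protein genes go from a mean of 31.1% to 99.6% and LEA genes from 8.29% to 70.4%, where all genes go from 19.4% to 23.3%, and the 1 DAI replicates of the storage protein list lie far apart.

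Genes of dormancy and of ABA and gibberellin turnover were marked in part. Of 16 dormancy and ABA genes, 1 was covered over at least 50% at 1 DAI and 4 at 3 DAI, 2 were newly covered (all genes 1.98%) and 3 of 13 tested rose (all genes 8.89%). *MFT* (AT1G18100), a PEBP-family gene of seed germination control, went from 0% in both to 61.1 and 58.3% and rose by 59.7 points ± 4.13 (adjusted p = 0.000189, limma). *DOG1*, the main dormancy gene, went from 0% in both to 75.3 and 77.0% and was newly covered, though its adjusted p was 0.0878. *NCED5*, which encodes an enzyme at the rate-limiting step of ABA synthesis, went from 0% to 32.3 and 34.1% (adjusted p = 0.0371), and *RDO5* from 0% to 48.0 and 51.3% (adjusted p = 0.022). Both calls were lost without any 1 library (0.1 to 0.157 and 0.068 to 0.108). In Col-0 the same list had 6 newly covered genes (all genes 2.54%) and 7 that rose, where 1479 of all 13015 tested genes rose. *NCED5* reached 100% in both Col-0 libraries, but its difference from Col-0 did not pass the test (limma interaction, adjusted p = 0.0771). *NCED9*, another gene of that enzyme family, reached 42.1 and 44.1% in Col-0 and 0% in *Atsdr4l-5*. For *NCED9* the time difference was 43.1 points below that in Col-0 (limma interaction, adjusted p = 0.00404, and 0.00772 to 0.0144 with 1 *Atsdr4l-5* library left out, but 0.0909 on the log2 scale and 0.108 with a replicate block). The ABA catabolic gene *CYP707A4* was covered over 98.3% or more throughout.

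Of 16 gibberellin turnover genes, 7 were covered over at least 50% at 1 DAI and 11 at 3 DAI, 3 were newly covered (all genes 1.98%) and 3 of 15 tested rose (all genes 8.89%). *GA20OX2* (AT5G51810), which encodes a GA 20-oxidase of late gibberellin synthesis, went from 0% in both to 90.3 and 86.4% and rose by 88.3 points ± 1.87 (adjusted p = 2.73e-07, limma). *GA20OX1* went from 37.2 and 29.4% to 100% in both (adjusted p = 0.0197) and *GA3OX4* from 0% to 71.6 and 78.0% (adjusted p = 0.0157). The calls of *GA20OX1* and *GA3OX4* were lost without any 1 library (0.0718 to 0.0909 and 0.0529 to 0.0859). *GA2OX1*, a gene of gibberellin inactivation, reached 46.3 and 42.5% (adjusted p = 0.164) where Col-0 reached 100% in both. *GA3OX2* stayed at about 40% (39.8, 41.8, 39.9 and 38.8%) where Col-0 went from 38.2 and 39.8% to 100% in both. In *Atsdr4l-4* it held 40.8 and 100% at 3 DAI. Neither *GA2OX1* nor *GA3OX2* passed the test of the difference from Col-0 (limma interaction, adjusted p = 0.688 and 0.641).

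Meristem and organ identity genes were mostly marked at both time points. All 14 floral organ MADS genes and all 6 YABBY genes were covered over at least 50% in all 4 libraries, and none rose or fell. Of 7 shoot meristem KNOX and CUC genes, 6 were covered over at least 50% at 1 DAI and 7 at 3 DAI. The change was at *CUC1* (AT3G15170), which encodes a NAC factor of organ boundaries. It went from 0% in both libraries to 100 and 96.5% and rose by 98.2 points ± 0.984 (adjusted p = 3.47e-09, limma). *KNAT6* extended from 71.7 and 60.9% to 95.9 and 95.5% (adjusted p = 0.00174). These 2 of the 7 tested genes rose, beside 8.89% of all tested genes. Of 15 *WUS* and *WOX* genes 1 was newly covered and 3 of 13 tested rose (all genes 8.89%). *WOX11*, a gene of adventitious root founder cells, went from 47.7 and 46.9% to 100% in both (adjusted p = 0.0107, and 0.0577 without 1 DAI replicate 1 and 0.057 without 3 DAI replicate 2). Of 7 AINTEGUMENTA-like genes none passed the test. *AIL5* held 100 and 72.6% at 1 DAI and 33.9 and 0% at 3 DAI (adjusted p = 0.0839), with 100 and 56.6% and then 8.7 and 23.6% in Col-0.

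Of 11 YUCCA genes, which encode flavin monooxygenases of auxin synthesis, 5 were covered over at least 50% at 1 DAI and 8 at 3 DAI, none was newly covered, and 3 of 10 tested rose (all genes 8.89%). *YUC9* (AT1G04180) went from 34.2 and 28.2% to 83.8 and 79.1% and rose by 50.2 points ± 3.07 (adjusted p = 9.7e-05, limma). In Col-0 it was covered at both time points, at 75.7 and 82.2% and then 81.5 and 85.6%. Its time difference was 45.6 points above that in Col-0 (limma interaction, adjusted p = 0.00339), but the direction depended on the peaks used, at -16.2 points (adjusted p = 1) when only peaks with a −log10 q of 5 or more were kept and -83.6 points (adjusted p = 2.07e-07) with peaks of at least 2-fold enrichment. *YUC11* went from 0% to 42.3 and 39.3% (adjusted p = 0.00027), and *YUC3* from 0% to 17.9 and 16.4% (adjusted p = 0.0331), a call lost without any 1 library (0.0917 to 0.138). Of 12 flowering repressor and florigen genes none was newly covered and 1 of 8 tested rose, a share near that of all genes, *MAF5* (0% to 18.1 and 17.7%, adjusted p = 0.0122, and 0.0544 to 0.0658 without 1 DAI replicate 1 or either 3 DAI library). *FLC*, the vernalisation-responsive repressor, went from 78.3 and 85.3% to 93.0 and 94.7% (adjusted p = 0.327). Of 12 stomatal lineage genes 2 of 9 tested rose (all genes 8.89%), *EPF1* and *EPF2*, which encode secreted peptides that limit stomata. *EPF1* went from 65.2 and 75.6% to 100% in both (adjusted p = 0.00737, limma). *EPF2* went from 0% to 20.6 and 38.2% (adjusted p = 0.0228, limma), a call lost when a 1 DAI library was left out.

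Of the 12 genes of PRC2, VAL and LHP1 proteins, 2 were marked, both at both time points. *MEA*, an imprinted PRC2 gene, was covered over 100% in all 4 libraries and *FIS2* over 79.8% or more. *VAL1*, *VAL2*, *CLF* and *SWN* held no marked base in the body in any of the 12 libraries. *AIL1*, *LEA76*, *EF1ALPHA* and *TIP41* matched no annotated symbol and were not counted in their lists. The 9 reference genes, among them *ACT2* and *UBQ10*, also held no marked base in the body. Of the 300 bases around the *ACT2* start, 231 and 136 lay in a peak at 1 DAI and 118 and 145 at 3 DAI. Of 16 photosynthesis and chloroplast genes 1 of 5 tested rose (all genes 8.89%). It was *PSAD-1*, from 0% to 46.7 and 27.3% (adjusted p = 0.0238, limma). The call was lost without 1 DAI replicate 1, 1 DAI replicate 2 or 3 DAI replicate 1. *LHCA2* was at 100 and 0% in the 3 DAI replicates.

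The 10 genes with the most newly covered bases were long genes of other roles, and a ranking by bases favours long genes. *RPP8* (AT5G43470), an NLR gene of resistance to downy mildew, went from 0% in both to 76.1 and 69.4%, with 3403 bases newly covered, and rose by 72.8 points ± 5.49 (adjusted p = 0.000297, limma). NLR genes have similar copies, so their coverage is uncertain where reads could map to more than 1 of them. *MPL1* (AT5G14180), an aphid-induced lipase gene, went from 7.6 and 10.2% to 95.8 and 96.5% (2756 bases, adjusted p = 2.9e-06). *UMAMIT23*, of an amino acid transporter family, went from 0% to 100% over 2982 bases in both libraries, and in Col-0 and *Atsdr4l-4* too. *sks16* (AT2G23630), of the SKU5-similar family, went from 0% to 100 and 99.9% (3060 bases, adjusted p = 0.000914). AT5G58610, which encodes a PHD finger protein, had the most, 4531 bases (4.0 and 0% to 88.5 and 86.7%, adjusted p = 0.00585). In Col-0 it reached 54.7 and 39.4%, and the difference did not pass the test of the interaction (adjusted p = 0.819). The calls of *CSLG3* (adjusted p = 0.0298) and AT4G19530 (adjusted p = 0.0105) were lost when libraries were left out, that of *CSLG3* without any 1 of the 4 (0.0659 to 0.147), and that of AT4G19530 without 1 DAI replicate 1 (0.0645) or 3 DAI replicate 2 (0.0541). The remaining 3, AT5G16900, AT4G21903 and the lncRNA gene AT3G21755, rose by 74.1, 91.6 and 94.7 points.

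Of the 10 genes with the most bases no longer covered, 8 passed the test. *AMT1;1* (AT4G13510), a high-affinity ammonium transporter gene, went from 93.9 and 74.7% to 0% in both and fell by 84.3 points (adjusted p = 0.00547, limma). The lncRNA gene AT4G13505 overlaps it and shares its peaks. *IAA16* (AT3G04730), an Aux/IAA repressor gene of auxin signalling, went from 70.3 and 66.5% to 0% in both and fell by 68.4 points (adjusted p = 0.000154). Its peaks were weak, since the change was absent with peaks of at least 2-fold enrichment or of a −log10 q of 5 or more (adjusted p = 1 in both). AT1G27930, which encodes a glucuronoxylan methyltransferase-like protein, went from 64.5 and 63.3% to 0% (adjusted p = 3.23e-06). *LBD37* and *LBD38* encode nitrogen-responsive repressors. *LBD38* (AT3G49940) went from 100% in both to 44.3 and 32.6% and fell by 61.6 points (adjusted p = 0.000542), while Col-0 reached 0% in both and *Atsdr4l-4* held 76.0 and 89.5% at 3 DAI. *LBD37* went from 70.4 and 61.9% to 0% in both, with a call (adjusted p = 0.0333) lost without any 1 library (0.0737 to 0.16). *TEM1* (AT1G25560), a repressor gene of flowering, went from 85.5 and 85% to 27.8 and 19.3% and fell by 61.7 points (adjusted p = 0.00191). In Col-0 it reached 0% in both, and in *Atsdr4l-4* it held 80.1 and 57.6% at 3 DAI. *MIOX2* (adjusted p = 0.0385) lost its call without any 1 library (0.0553 to 0.192), and *LOG1*, a cytokinin activation gene, had the most bases lost (2104) but did not pass the test (adjusted p = 0.067). The remaining gene, AT4G13330, did not pass it either (adjusted p = 0.109).

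Newly covered genes had short bodies, but the rule asks for a share of the body, which fewer new bases meet in a short gene. The 580 protein-coding genes had a median body of 1304 bp, beside 1531 bp for the 5224 covered in all 4 libraries and 2078 bp for all 27444. In the 365 newly covered protein-coding genes of at least 1 kb, mean coverage at 3 DAI reached 98.0 and 99.3% in the middle of the body, and was 43.1 and 42.8% at 1 kb before the start. At 1 DAI the same position before the start held 20.1 and 28.7% and the middle 2.51 and 4.51%. Over all 23064 protein-coding genes of that length the position before the start held 21.4 and 25.2% at 1 DAI, close to that of the newly covered genes. The low value in the body follows from the rule, which asks for an unmarked body at 1 DAI. The 15 no longer covered genes of that length showed the reverse in the body, at 100% in both 1 DAI libraries and 18.8 and 6.67% in the 3 DAI libraries.

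**Figure D5:**
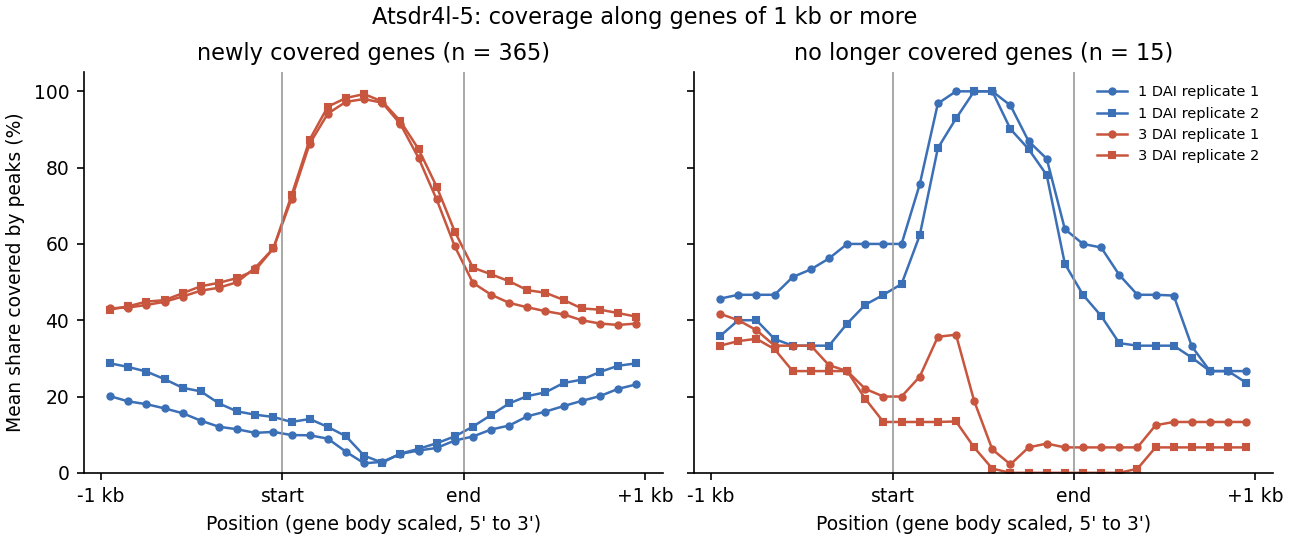
Mean percent covered along newly covered (left, n = 365) and no longer covered (right, n = 15) protein-coding genes of at least 1 kb, from 1 kb before the start to 1 kb after the end, with the body scaled, in each *Atsdr4l-5* library. In the middle of newly covered genes the 3 DAI lines reach 98.0 and 99.3% and the 1 DAI lines lie at 2.51 and 4.51%, a contrast that the rule selects.

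Of 4 motifs searched around the start, the RY element and the G-box were found in a larger share of newly covered promoters than of all promoters. The window ran from 250 bases before to 50 after the start of each protein-coding gene, and both strands were read. The RY element CATGCA was present in 20.3% of the 580 newly covered promoters, 15.2% of those covered in all 4 libraries and 9.72% of all 27444. The G-box CACGTG was present in 11.6%, 4.98% and 7.68%. Both together, as in *OLEO1* above, were present in 24 of the 580 (4.14%), beside 0.842% and 0.845%. The telobox AAACCCTA was present in 5.52%, 8.04% and 6.22%, and the GA repeat GAGAGA in 26.7%, 27.9% and 29.2%. The letters of RY elements can overlap, and these shares are a description with no test.

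Of the 752 newly covered genes, 453 (60.2%) were newly covered in Col-0 as well, which is 47.0% of the 963 of Col-0 (2.54% of all genes). In *Atsdr4l-4* 387 (51.5%) were newly covered, which is 64.8% of the 597 there (1.58%), and 289 genes were newly covered in all 3 genotypes. The libraries of the comparisons are separate, but all peaks were called against 1 joined mock control. Of the 510 genes newly covered in Col-0 and not in *Atsdr4l-5*, 185 were covered over at least 50% at 3 DAI in *Atsdr4l-5* too, 34 were so at 1 DAI already, and 62 had no marked base at 3 DAI. Of the 64 no longer covered genes, 26 (40.6%) were shared with the 117 of Col-0 (22.2%). The time difference per gene was higher in *Atsdr4l-5* than in Col-0 for 69 genes (0.53%) and lower for 154 (1.18%) by the limma interaction. Against *Atsdr4l-4* it was higher for 61 genes (0.469%) and lower for 29 (0.223%), or 130 to 496 and 81 to 129 with 1 *Atsdr4l-5* library left out, each of the 4 moving both counts by over 1.5 times. The counts against Col-0 depended on single libraries, at 130 to 441 higher and 208 to 258 lower with 1 *Atsdr4l-5* library left out. Each of the 4 moved the higher count by over 1.5 times, with 145 and 441 without 1 DAI replicates 1 and 2 and 287 and 130 without 3 DAI replicates 1 and 2. The lower count moved that far without 1 DAI replicate 2 (242) or 3 DAI replicate 1 (258).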

How the data were processed

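H3K27me3 ChIP-seq of *Atsdr4l-5* was analysed from the peak lists of 12 libraries. Per the paper's methods, the authors trimmed reads with fastp (0.23.4 in the submitters' processing notes), aligned them to TAIR10 with Bowtie 2, filtered by mapping quality with Samtools and called broad peaks per library with MACS2 against a joined mock IgG control. The mock samples and an ABA sample were not analysed here. The deposited columns used are fold enrichment, a linear ratio over background, and −log10 of q, which the authors' score repeats (within 1 of 10 times it). Depth is unknown, and no peak overlapped another in its library or passed a TAIR10.1 chromosome end.

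Covered bases per gene body were computed with TAIR10.1 gene positions (37899 genes, chromosomes 1 to 5) with numpy 2.4.6, pandas 2.3.3 and scipy 1.17.1 under Python 3.11.15, and plotted with matplotlib 3.10.9. limma 3.58.1 in R 4.3.3 fitted percent covered over 6 groups without trend. Data were simulated for the comparison of 3 with 1 DAI in *Atsdr4l-5*, with 13015 genes and 200 changed by 50 points. On them limma recovered 60.5% of the changed genes, and 0% of its calls were false. The simulated residuals summed to 0 within each group, so an unchanged gene had no time difference and could not be called. The 0% was thus fixed by the design, and the rate of false calls in the real data was not tested. A changed gene differed by exactly 50 points, so the recovered share may not hold in the real data either. Replicate numbers were not used as a block, since over all genes same-numbered libraries did not deviate together, neither between time points of a genotype (correlations 0.00567, -0.00159 and 0.000338) nor between genotypes at a time point (-0.069 to 0.0707), though some storage protein genes did.

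Genes named are the 10 with the most newly and the 10 with the most no longer covered bases, the 10 with the smallest interaction p in each direction, and members of 18 gene lists. Others are said to have been chosen after their values were seen, or are in the longest segments. Members and lists were chosen with earlier results of these data known. Alternatives were stricter peaks, equal peak number or covered length, joined peaks, other shares of the body, other scales and filters, a replicate block and each library left out. List counts without 1 DAI replicate 1 and with stricter or equal-length peaks, and a term for replicate number within a time point, were added after the data were seen.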

Additional observations from a re-analysis of the deposited data

Results flagged for a closer look

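The 3 to 1 DAI difference was higher in *Atsdr4l-5* than in Col-0 for 69 genes and lower for 154 by the limma interaction test. The 10 with the smallest p in each direction were mostly short genes that sat at 0 or 100% in every library, so their p is not given. These genes are still included in the 69 and 154. Above Col-0, *CLE18*, AT2G29654, AT3G04265, AT5G05465 and AT5G08735 differed by 100.0 points each, AT2G37830 by 99.08, AT1G05953 by 97.17, AT4G26580 by 23.43, AT3G09550 by 20.25 and AT5G06805 by 15.54. *CLE18*, a CLAVATA3/ESR-related peptide gene of 306 bp, was at 0% in all *Atsdr4l-5* libraries, while Col-0 and *Atsdr4l-4* went from 100% to 0%. The ankyrin repeat gene AT3G09550 (0% to 20.2 and 20.3%), the RING/U-box gene AT4G26580 (0% to 23.2 and 23.6%) and the pseudogene AT5G06805 (0% to 15.9 and 15.2%) were unmarked in the other genotypes at both time points. Below Col-0, AT1G05697, AT1G07507, AT1G49020, *MIR395f*, AT2G01422, AT2G04005, AT2G12461, *MIR156a*, AT3G09195 and *CLL2* differed by -100.0 points each. *MIR156a* and *MIR395f*, which give microRNAs of phase change and of sulphate supply, and *CLL2*, an epidermal patterning factor-like gene, went from 0% to 100% in Col-0 and stayed at 0% in both alleles.

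Members of the gene lists with such a difference were *ABI3* (-71.02 points), *NCED9* (-43.11), *PLT3* (-23.14), *TMM* (-19.74), *OLEO2* (-12.36) and *YUC9* (45.6). *PLT3*, a root stem cell gene, reached 24.6 and 21.7% in Col-0 and 0% in *Atsdr4l-5*, and *TMM*, a receptor-like gene of stomatal patterning, 21.1 and 18.4% and 0%. For *PLT3* the difference was -12.3 points (adjusted p = 0.926) with peaks of at least 2-fold enrichment. Whether any of these differences belongs to the allele or to a peak called near its threshold was not tested.

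Peaks on the organellar sequences, left out of the comparisons, numbered 15 and 17 in the 1 DAI libraries of *Atsdr4l-5* and 0 in its 3 DAI libraries. Col-0 had 20 and 27 at 1 DAI and *Atsdr4l-4* 0 and 23, and all 3 DAI libraries had 0.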

How the results depend on the processing

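Covered length rose from 1 to 3 DAI under every alternative that gave it a value. At 20 Mb per library 3 DAI had fewer peaks (-0.31 on the log2 scale), and median width reversed with −log10 q of at least 5 (-0.15) or 2-fold enrichment (-0.13). The difference in covered length from Col-0 reversed under the same 2 selections (0.045 and 0.082) and ranged from -0.12 to 0.091 with 1 library left out, and that from *Atsdr4l-4* from -0.021 to 0.19. At 20 Mb newly covered length was 1470 kb. Length no longer covered was 256.2 kb (−log10 q), 193.3 kb (fold) and 1327 kb (20 Mb). Leaving out 1 library gave 2978 to 4765 and 784.4 to 1774 kb. Newly covered genes numbered 1485 at 25% of the body, 350 at 80%, 438 with 1 kb on the 5′ side, 1300 with 2-fold peaks (386 of them among the 752), 472 at 20 Mb and 878 to 1245 with 1 library left out. No longer covered genes numbered 131, 34 and 42 for the same body settings, 26 when protein-coding, 37 with 2-fold peaks, 343 at 20 Mb and 87 to 180 with 1 library left out. By limma, genes that fell numbered 50 with no filter, 43 (−log10 q), 30 (fold) and 74 to 163 with 1 library left out. The interaction with Col-0 called 109 (−log10 q) and 115 (fold) genes higher, 130 to 441 with 1 library left out, and 208 to 258 lower. The cause was not tested.

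A replicate block, which has no support in the labels, gave 610 genes higher and 35 lower, and interactions of 31 and 72. A replicate term within a time point, shared by the genotypes and added after the data were seen, gave 986 and 69, and 49 and 114, and the interactions of *ABI3* (adjusted p = 0.0807, limma) and *YUC9* (0.0513) were not past the threshold under it. Of the 63 named genes past the test, 36 kept their call under the replicate block, and 33 of 54 and 23 of 50 with the −log10 q and fold selections. None reversed its time difference. Covered length at 20 Mb and peak number at 6000 peaks are fixed by those settings and have no value.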
